A study of Mus musculus with 12 samples.

Results

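The 40 genes described here are 18 genes of DNA replication (S phase) and 22 genes of mitosis, given as a fixed list of symbols and taken from the 28987 gene rows of an RNA sequencing table of mouse bone marrow. The replication genes cover origin licensing and the helicase (Mcm2 to Mcm7, Gins2, Cdc6, Cdt1), the replication fork (Pcna, Rfc4, Fen1, Lig1, Uhrf1), nucleotide supply (Rrm1, Rrm2) and cyclin E (Ccne1, Ccne2). The mitotic genes cover cyclins A and B with Cdk1, the mitotic kinases, the spindle checkpoint, the anaphase promoting complex, spindle motors, the kinetochore and chromosome structure. The list sorts genes by function, and it was drawn up with earlier results of these data known. Each symbol matched exactly 1 row.

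Messenger RNA was measured in 12 libraries from C57BL/6 mice, 2 per group, each from an individual mouse by the labels' account. The groups were Ly6G+ myeloid cells of CBL/RUNX1 mutant (double mutant) and wild type marrow, and hematopoietic stem and progenitor cells (HSPC) of double mutant, RUNX1 mutant, CBL mutant and wild type marrow. HSPC were enriched by CD117 selection with FACS of the mutant clone, and Ly6G+ cells were sorted by FACS. The labels name neither the alleles nor how they were introduced, nor the age of the mice. Cbl encodes an E3 ubiquitin ligase that limits receptor tyrosine kinase signaling, and Runx1 a transcription factor of blood development. Values are TPM, a share of the library's transcripts corrected for gene length, so levels of different genes can be compared. They were scaled between libraries (scaled TPM), and fold changes are differences of log2(scaled TPM + 1).

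A dividing cell copies its DNA in S phase and separates the copies in mitosis, and each step draws on its own wave of transcripts. E2F factors, held back by retinoblastoma proteins, switch on most replication genes as a cell commits to divide. Mitotic genes are switched on later, in G2, by B-MYB and FOXM1 with the MuvB complex, which binds the CHR element (cell cycle genes homology region), often beside CCAAT boxes bound by NF-Y. In marrow, committed progenitors divide often, neutrophil precursors divide for a few rounds, and mature neutrophils have left the cycle. In bulk samples such as these, fewer cells of a type and less RNA per cell cannot be told apart.

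The promoters of the members show this division of motifs. A RefSeq window, from 250 bases before to 50 bases after a transcription start on GRCm38.p6, was at hand for 18 of the 22 mitotic and 15 of the 18 replication genes. Each window was searched on both strands for an E2F motif (TTTCCCGC, TTTCGCGC, TTTGCCGC or TTTGGCGC), a CHR (TTTGAA or TTCGAA) and a CCAAT box (CCAAT). The CHR letters were found for 13 of 18 mitotic genes (72.2%), 3 of 15 replication genes (20%) and 21.7% of all 27025 genes with a window. The E2F letters were found for 1 of 18 mitotic genes (5.56%, Cdk1), 8 of 15 replication genes (53.3%) and 2.6% of all genes. CCAAT was found for 15 of 18 mitotic genes (83.3%), 9 of 15 replication genes (60%) and 41.1% of all genes. A match describes letters in a window and is no evidence that a factor binds there.

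The promoter stretches printed here, which end at the base before the start, were chosen since they hold the elements that set the 2 sets apart. Capitals mark CHR and E2F motifs, and matches on opposite strands overlap in Mcm6 and Mcm5. The mitotic genes are Cdk1, the kinase that drives entry into mitosis (chr10:69352913-69353062, minus strand), Cdc20, an activator of the anaphase promoting complex (chr4:118437344-118437443, minus strand), and Ube2c, the ubiquitin-conjugating enzyme of that complex (chr2:164769829-164769928, plus strand). The replication genes are Mcm6 (chr1:128359706-128359855, minus strand) and Mcm5 (chr8:75109349-75109508, plus strand), subunits of the replicative helicase, and Cdc6 (chr11:98908001-98908150, plus strand), which loads that helicase onto origins.
Cdk1: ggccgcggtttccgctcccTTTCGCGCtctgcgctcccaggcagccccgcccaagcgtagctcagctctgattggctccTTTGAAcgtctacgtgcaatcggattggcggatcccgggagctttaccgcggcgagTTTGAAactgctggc
Cdc20: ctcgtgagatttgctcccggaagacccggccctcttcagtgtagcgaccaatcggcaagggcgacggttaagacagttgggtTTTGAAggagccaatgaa
Ube2c: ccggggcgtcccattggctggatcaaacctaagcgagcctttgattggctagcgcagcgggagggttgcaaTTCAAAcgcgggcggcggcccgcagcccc
Mcm6: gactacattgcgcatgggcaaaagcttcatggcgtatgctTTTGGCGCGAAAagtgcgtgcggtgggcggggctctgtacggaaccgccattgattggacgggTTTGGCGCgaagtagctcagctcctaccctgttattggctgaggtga
Mcm5: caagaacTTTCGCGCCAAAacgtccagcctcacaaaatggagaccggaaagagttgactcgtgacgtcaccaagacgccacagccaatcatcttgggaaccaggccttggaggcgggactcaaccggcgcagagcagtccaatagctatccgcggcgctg
Cdc6: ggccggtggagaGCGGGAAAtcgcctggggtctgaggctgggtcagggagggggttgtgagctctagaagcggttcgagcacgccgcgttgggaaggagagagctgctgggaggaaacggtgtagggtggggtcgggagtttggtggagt

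Cdk1 held both kinds of motif, with E2F letters 131 bases and CHR letters 71 and 15 bases before the start. Cdc20 had a CHR 18 bases and Ube2c a CHR on the opposite strand 29 bases before the start, and neither had the E2F letters. Mcm6, Mcm5 and Cdc6 had E2F letters and no CHR. Of the members, Cdk1 and Mcm7 held both motifs in 1 window.

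A few facts of the libraries bear on what follows. The mutated genes went with their labels. Cbl was 72.4 to 101 scaled TPM in CBL mutant and double mutant HSPC and 18.6 to 37.3 in the other HSPC libraries. Runx1 was 205 and 218 in double mutant HSPC, and 12 to 15.9 in CBL mutant and wild type HSPC. In RUNX1 mutant HSPC it was 128 in library 1 and 47.9 in library 2. Among HSPC, calprotectin (S100a8 and S100a9), which maturing neutrophils make in bulk, took 8.11% and 9.54% of all TPM in the double mutant, 13.3% and 27% in the RUNX1 mutant, 26.9% and 21.5% in the CBL mutant and 28.9% and 31.4% in the wild type. The HSPC label thus covers libraries rich in maturing neutrophil RNA, and Kit, which encodes CD117, was 30.8 and 34.5 scaled TPM in wild type HSPC. Pairs of libraries stood apart in 2 groups. The SD over genes of the log2 difference between libraries 1 and 2 was 0.998 in double mutant Ly6G+ cells and 0.709 in RUNX1 mutant HSPC, and 0.301 to 0.376 in the other groups. Library 1 minus library 2 gave a median log2 difference of -1.102 over the mitotic members in RUNX1 mutant HSPC, and of 0.395 over the mitotic and 0.668 over the replication members in double mutant Ly6G+ cells. Scaling factors ran from 0.709 to 1.501, and leaving TPM unscaled moved the median log2 fold change of all genes against wild type by 0.54 in double mutant HSPC, 0.48 in the RUNX1 mutant, 0.35 in the CBL mutant and 0.52 in double mutant Ly6G+ cells. Directions against wild type therefore hold relative to the bulk of genes.

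**Figure D1:**
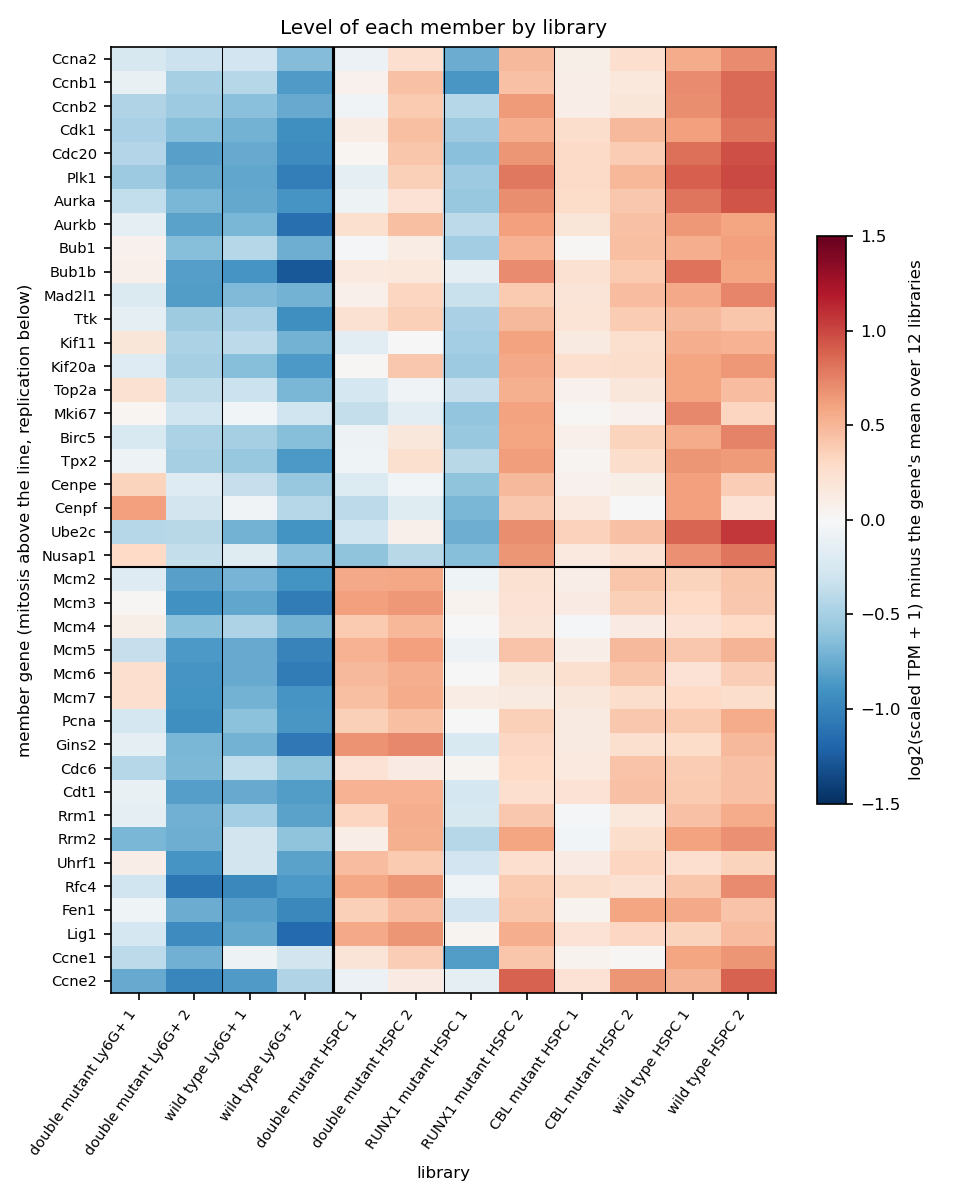
Level of each of the 40 members (rows) in the 12 libraries (columns), as log2(scaled TPM + 1) minus the gene's mean over all libraries. Mitotic members stand above the line and replication members below it. In double mutant HSPC most replication rows are red (mean log2 level 6.312 and 6.409) while the mitotic rows are pale (5.488 and 5.753), and RUNX1 mutant HSPC library 1 is pale or blue in nearly all rows. With unscaled TPM, 13 of 22 mitotic members change sign between double mutant and wild type HSPC.

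All 40 members passed the filter of 1 TPM in at least 2 libraries in every fit, and none was at 0 anywhere. In wild type HSPC they spanned 8.60 scaled TPM for Cenpf, a kinetochore protein, to 403 for Pcna, the sliding clamp of the fork. The mean log2 level of the 22 mitotic members was 6.238 and 6.248 in the wild type HSPC libraries, and that of the 18 replication members 6.292 and 6.403. Both sets thus stood at nearly the same level in wild type HSPC, with a mitosis minus replication difference of -0.054 and -0.155. In wild type Ly6G+ cells that difference was -0.226 and -0.293.

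In double mutant HSPC the 2 sets parted. All 22 mitotic members lay below both wild type libraries in both double mutant libraries, with a median log2 fold change of -0.604, while the replication members had a median of 0.111 and all genes tested one of 0.022. Of the 18 replication members, 10 lay above both wild type libraries, 4 lay below them and 4 overlapped. Over all genes tested, 34.5% lay below and 36.6% above wild type without overlap. The mitosis minus replication difference within a library was -0.824 and -0.655 in double mutant HSPC, beside the -0.054 and -0.155 of wild type HSPC. It needs no scaling between libraries, and it was -0.828 and -0.658 in unscaled TPM in the double mutant, against -0.053 and -0.152 in wild type HSPC. The direction against wild type does depend on scaling. With unscaled TPM the mitotic median was 0.026 and the replication median 0.737, around a median of 0.561 over all genes. Only 3 mitotic members then lay below wild type without overlap and 4 lay above it, while all 22 remained below the median of all genes. The share of all genes without overlap in unscaled TPM was not computed, here or in the comparisons below.

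No member was called in double mutant against wild type HSPC by limma across the 8 HSPC libraries (adjusted p under 0.05), where 11.1% of 12421 genes were called in either direction, and 3 of 40 members had an unadjusted p under 0.05, against 33.9% of genes. That fit shares its spread with the RUNX1 mutant pair. Without RUNX1 mutant library 1, limma called 20 members lower, 18 of them mitotic along with Ccne1 and Ccne2, beside 19.1% of genes called lower. Without RUNX1 mutant library 2 it also called 20, beside 18.7%, and with the 4 compared libraries alone it called 20, beside 20.5%. No replication member was called higher in these 3 fits. All 3 take the spread of the RUNX1 mutant pair out of the same contrast, so they are not separate tests. Limma called no member with all 12 libraries in 1 fit, beside 233 genes called in either direction. It also called none with a replicate block, beside 1478 genes. With unscaled TPM, limma called 13 replication members higher and no mitotic member, beside 31.9% of genes called higher.

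**Figure D2:**
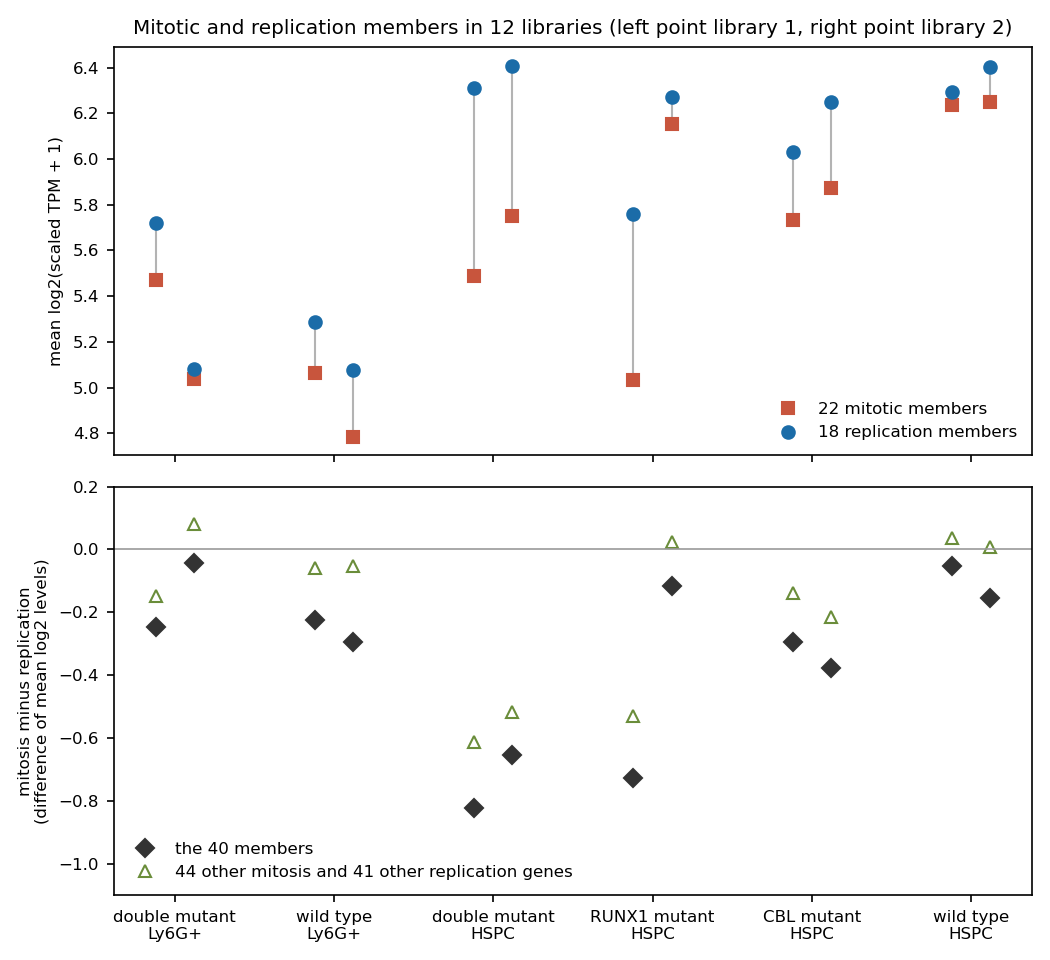
Upper panel, mean log2(scaled TPM + 1) of the 22 mitotic members (squares) and the 18 replication members (circles) in each library; lower panel, their difference in each library (diamonds), with the same difference for 44 other mitosis and 41 other replication genes (triangles). The difference is most negative in double mutant HSPC (-0.824 and -0.655) and RUNX1 mutant HSPC library 1 (-0.726). With unscaled TPM the levels of the upper panel move, and the difference in double mutant HSPC becomes -0.828 and -0.658.

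The mitotic members differed in size. Nusap1, a microtubule-bundling protein of the spindle, had the lowest fold change of all 40. Its level was 24.6 and 28.1 scaled TPM in double mutant, 24.0 and 60.6 in RUNX1 mutant, 42.0 and 44.4 in CBL mutant and 61.4 and 66.6 in wild type HSPC. Both double mutant libraries lay far below both wild type libraries, and beside the level of RUNX1 mutant library 1. Its log2 fold change in the double mutant was -1.25 ± 0.37 (SE), with limma adjusted p = 0.0682 over 8 libraries and 0.000244 without RUNX1 mutant library 1. Ube2c had 125 and 162 scaled TPM in double mutant, 91.8 and 249.6 in RUNX1 mutant, 196 and 209 in CBL mutant and 283 and 322 in wild type HSPC. It differed by -1.08 ± 0.42 (SE) on the log2 scale in the double mutant, with adjusted p = 0.121 and 0.00186 in the same limma fits. Cdc20, its partner in the anaphase promoting complex, had 69.4 and 91.0 scaled TPM in double mutant, 43.8 and 108 in RUNX1 mutant, 83.1 and 88.7 in CBL mutant and 121 and 133 in wild type HSPC. For Ube2c the double mutant libraries were the lowest apart from RUNX1 mutant library 1, while for Cdc20 they overlapped the CBL mutant.

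Among the cyclins and Cdk1, Ccna2, cyclin A2, which acts in S phase as well as at entry into mitosis, had 62.2 and 78.7 scaled TPM in double mutant, 38.9 and 93.2 in RUNX1 mutant, 70.5 and 78.7 in CBL mutant and 97.6 and 108 in wild type HSPC. Ccnb1, cyclin B1, the partner of Cdk1, had 51.5 and 67.2 scaled TPM in double mutant, 26.3 and 66.9 in RUNX1 mutant, 52.7 and 54.8 in CBL mutant and 80.7 and 89.1 in wild type HSPC. Cdk1 had 162 and 205 scaled TPM in double mutant, 102 and 219 in RUNX1 mutant, 179.6 and 209.9 in CBL mutant and 229 and 262 in wild type HSPC. The double mutant lay below wild type without overlap in all 3, with fold changes of -0.55, -0.52 and -0.43 on the log2 scale, and Ccnb2 at -0.60 was the lowest of this group.

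Of the mitotic kinases, Plk1, which acts in centrosome maturation and spindle assembly, had 41.3 and 58.6 scaled TPM in double mutant, 30.9 and 79.5 in RUNX1 mutant, 56.0 and 64.9 in CBL mutant and 85.8 and 92.1 in wild type HSPC. Its log2 fold change of -0.84 ± 0.40 (SE) in the double mutant was the largest decrease of the kinases (adjusted p = 0.187, and 0.00885 without RUNX1 mutant library 1, limma). Aurka, the centrosome kinase Aurora A, followed with -0.80, whereas Aurkb, the Aurora B of the chromosomal passenger complex, had -0.27 and the checkpoint kinase Ttk -0.16. Aurkb, Ttk, Cdk1 and Kif20a were the 4 mitotic members not called lower in the fits without a RUNX1 mutant library. Bub1b, the checkpoint protein BubR1, had 59.6 and 60.0 scaled TPM in double mutant, 48.7 and 88.4 in RUNX1 mutant, 63.4 and 71.1 in CBL mutant and 95.3 and 81.4 in wild type HSPC.

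Among proteins of chromosomes and kinetochores, Top2a, topoisomerase II, which untangles sister chromatids, had 126 and 145 scaled TPM in double mutant, 119 and 219 in RUNX1 mutant, 158 and 170.0 in CBL mutant and 228 and 209 in wild type HSPC. Mki67, the proliferation antigen Ki-67 that coats mitotic chromosomes, had 46.4 and 53.1 scaled TPM in double mutant, 39.2 and 91.3 in RUNX1 mutant, 60.2 and 62.2 in CBL mutant and 98.9 and 74.5 in wild type HSPC. Birc5, survivin, a passenger of Aurora B, had 94.6 and 112 scaled TPM in double mutant, 66.8 and 151 in RUNX1 mutant, 105 and 126 in CBL mutant and 147 and 168 in wild type HSPC. Their log2 fold changes in the double mutant were -0.69, -0.78 and -0.60, and wild type and double mutant libraries did not overlap in any of them.

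The replication members went in more than 1 direction. All 6 Mcm helicase subunits, Gins2 of the same helicase, the licensing factor Cdt1, the chromatin reader Uhrf1 and the ligase Lig1 lay above both wild type libraries in both double mutant libraries. Mcm2 had 96.1 and 97.0 scaled TPM in double mutant, 61.7 and 75.8 in RUNX1 mutant, 69.1 and 86.4 in CBL mutant and 81.4 and 86.3 in wild type HSPC. Mcm5 had 122 and 129.7 scaled TPM in double mutant, 80.1 and 113 in RUNX1 mutant, 90.1 and 118 in CBL mutant and 112 and 120.3 in wild type HSPC. Gins2 had 39.7 and 41.3 scaled TPM in double mutant, 20.9 and 30.7 in RUNX1 mutant, 27.1 and 29.2 in CBL mutant and 29.9 and 34.8 in wild type HSPC. Its log2 fold change of 0.32 ± 0.19 (SE) in the double mutant was the highest of the 18 (limma adjusted p = 0.275). None of these 10 passed the test, and each moved by at most 0.32 on the log2 scale.

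Cdc6, Rrm2, Ccne1 and Ccne2 were the replication members below wild type. Cdc6 had 22.5 and 21.1 scaled TPM in double mutant, 19.8 and 23.9 in RUNX1 mutant, 21.4 and 26.3 in CBL mutant and 25.3 and 26.4 in wild type HSPC. Rrm2, the regulated subunit of ribonucleotide reductase, had 140.0 and 188 scaled TPM in double mutant, 96.6 and 196 in RUNX1 mutant, 127 and 157 in CBL mutant and 199 and 209 in wild type HSPC. Ccne1 and Ccne2 encode cyclin E, which with Cdk2 starts S phase. Ccne1 had 20.0 and 22.7 scaled TPM in double mutant, 9.26 and 23.6 in RUNX1 mutant, 18.1 and 17.7 in CBL mutant and 26.8 and 28.2 in wild type HSPC. Ccne2 had 29.3 and 34.2 scaled TPM in double mutant, 28.4 and 58.7 in RUNX1 mutant, 36.6 and 50.2 in CBL mutant and 45.0 and 58.4 in wild type HSPC. The log2 fold changes in the double mutant were -0.24, -0.33, -0.35 and -0.68, so the cyclin E genes stood nearer to the mitotic members than to the helicase genes. Both were called lower by limma without RUNX1 mutant library 1 (adjusted p = 0.0371 for Ccne1 and 0.029 for Ccne2). With unscaled TPM 6 of the 18 replication members turned from negative to positive.

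Pcna, Rfc4, Fen1 and Rrm1 overlapped wild type. Pcna had 352 and 374 scaled TPM in double mutant, 275 and 352 in RUNX1 mutant, 300.1 and 363 in CBL mutant and 359 and 403 in wild type HSPC. Rfc4, of the clamp loader, had 55.2 and 58.7 scaled TPM in double mutant, 35.3 and 48.6 in RUNX1 mutant, 44.4 and 43.2 in CBL mutant and 49.2 and 60.7 in wild type HSPC. Lig1 had 119.5 and 128 scaled TPM in double mutant, 82.8 and 118 in RUNX1 mutant, 93.7 and 100.4 in CBL mutant and 102 and 112 in wild type HSPC. Cdt1 had 49.6 and 49.6 scaled TPM in double mutant, 28.5 and 41.1 in RUNX1 mutant, 39.9 and 46.9 in CBL mutant and 45.3 and 46.8 in wild type HSPC. These 2 differed by 0.22 and 0.11 on the log2 scale.

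**Figure D3:**
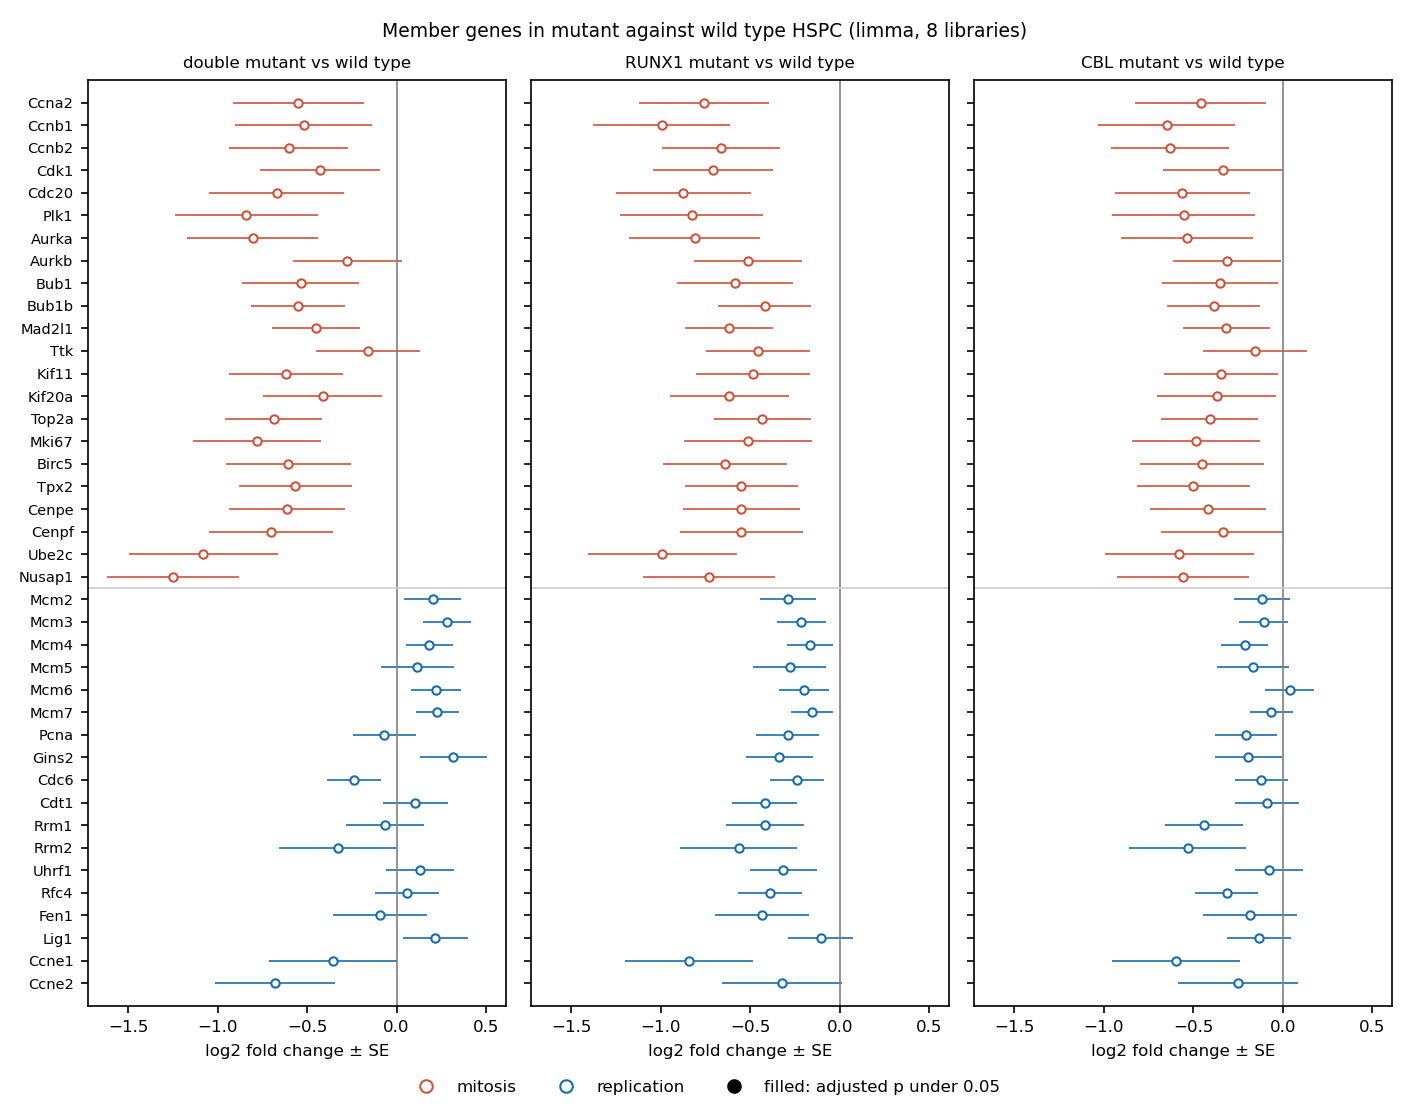
Log2 fold change ± SE of each member in double mutant, RUNX1 mutant and CBL mutant HSPC against wild type HSPC, from limma over 8 libraries; mitotic members are drawn above the line and replication members below it, and no point is filled because no member was called. The mitotic points lie left of 0 in all panels, while in the double mutant 11 of 18 replication points lie right of 0. With unscaled TPM 13 mitotic and 6 replication signs turn in the double mutant, 6 and 16 in the RUNX1 mutant, and 10 and 14 in the CBL mutant.

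Genes of the same processes outside the 40 were also divided in double mutant HSPC. Of 44 other mitosis genes, 37 lay below wild type without overlap and 1 above, with a median log2 fold change of -0.63. Of 41 other replication genes, 16 lay below and 17 above, with a median of 0.029. With unscaled TPM 15 of the 44 lay below and 15 above, and 39 of the 41 lay above, while 39 of the 44 were below the median of all genes. Their mitosis minus replication difference was -0.614 and -0.517 in double mutant HSPC and 0.036 and 0.008 in wild type HSPC. Limma called 1 of the 44, Cdc25b, a phosphatase that activates Cdk1, which fell to 10.2 and 10.5 scaled TPM in double mutant HSPC, against 25.9 and 24.2 scaled TPM in wild type HSPC (log2 fold change -1.20 ± 0.20 (SE), adjusted p = 0.0225). No other replication gene was called.

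Of 24 cell cycle transcription regulators tested, 3 were called in double mutant HSPC, a share close to the 11.1% of all genes called in that fit. Mybl2, which encodes B-MYB, rose to 74.8 and 91.0 scaled TPM in double mutant HSPC, against 38.1 and 36.1 scaled TPM in wild type HSPC (log2 fold change 1.13 ± 0.18 (SE), limma adjusted p = 0.0219). Cdkn2c, the Cdk4 and Cdk6 inhibitor p18, fell to 27.8 and 26.2 scaled TPM in double mutant HSPC, against 83.2 and 94.0 scaled TPM in wild type HSPC (log2 fold change -1.68 ± 0.20 (SE), limma adjusted p = 0.0108). Cdkn1b, the inhibitor p27, fell to 18.6 and 17.9 scaled TPM in double mutant HSPC, against 31.4 and 29.6 scaled TPM in wild type HSPC (log2 fold change -0.71 ± 0.14 (SE), limma adjusted p = 0.0325). The median over the 24 regulators was -0.29, against 0.022 over all genes.

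Markers of other cells moved with this contrast. Of 11 maturing neutrophil markers, limma called 8 lower in double mutant HSPC, and their mean log2 level was 8.943 and 9.048 in the double mutant, against 11.647 and 11.871 in wild type HSPC. Of 5 plasma cell markers 4 were called lower, with a summed level of 5.39 and 4.71 scaled TPM in double mutant HSPC, against 1518 and 1681 in wild type HSPC. Of 8 erythroid precursor markers 1 was called lower, with a summed level of 98.1 and 73.9 scaled TPM in double mutant HSPC, against 143 and 164 in wild type HSPC. Tfrc alone made up 63.5 and 53.5 of that sum in the double mutant, against 47.8 and 47.3 in the wild type, so it rose while the sum fell. Of 7 stem and progenitor markers 1 was called higher, with a summed level of 266 and 189 scaled TPM in double mutant HSPC, against 73.0 and 82.0 in wild type HSPC. Cd34 alone made up 162 and 114 of that sum in the double mutant, against 28.15 and 31.81 in the wild type. Primary granule markers, which mark dividing granulocyte precursors, summed to 10660 and 13210 scaled TPM in the double mutant, against 9104 and 10060 in wild type HSPC, with none of 4 called. By the same fit 1 of 6 B precursor, 1 of 4 T and natural killer and 1 of 5 megakaryocyte markers tested were called lower and 1 of 7 monocyte markers higher. None of the neutrophil, plasma cell, erythroid, progenitor and granule markers was at 0 in these 4 libraries. The part of these cell types in the difference between mitotic and replication members was not tested.

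In RUNX1 mutant HSPC all 40 members had negative log2 fold changes against the same wild type libraries, with medians of -0.617 over the mitotic and -0.302 over the replication members and of -0.03 over all genes. Of these, 13 mitotic and 14 replication members lay below wild type without overlap, beside 27.0% of all genes. Limma called none of the 40, beside 0.0483% of genes called in either direction, and 3 members (Ccnb1, Mad2l1 and Ube2c) and 16.5% of genes had an unadjusted p under 0.05. With unscaled TPM the mitotic median was -0.08 and the replication median 0.241 around 0.447 for all genes, so that 6 mitotic and 16 replication signs turned, and all 40 remained below the median of all genes.

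The result rests on RUNX1 mutant library 1. Its mitosis minus replication difference was -0.726, while that of library 2 was -0.117, inside the range of the wild type libraries. Ccnb1 shows the gap, with 26.3 scaled TPM in library 1 and 66.9 in library 2, against 80.7 and 89.1 in wild type HSPC, and differs by -0.99 ± 0.38 (SE) on the log2 scale (limma adjusted p = 0.283). Without library 1 no member was called, the median log2 fold changes were -0.059 for mitotic and -0.1 for replication members, and their difference turned to 0.04. Without library 2, limma called 31 members lower, all 22 mitotic and 9 replication members, beside 15.9% of genes called lower, under the assumption that the lone library varied as the other groups did. Library 1 also held 673 scaled TPM of stem and progenitor markers and 13.3% calprotectin, against 128 scaled TPM and 27% in library 2. The part of those cells in the gap was not tested. Runx1 was 128 scaled TPM in library 1 and 47.9 in library 2, and the part of this difference was not tested either. Over both libraries no marker was called. Without overlap, 7 of 11 maturing neutrophil, 4 of 4 primary granule, 6 of 8 erythroid precursor, 6 of 6 B precursor and 5 of 5 plasma cell markers lay below wild type. So did 2 of 4 T and natural killer, 3 of 7 monocyte and 1 of 5 megakaryocyte markers, beside 3352 of 12421 genes. Above it lay 6 of 7 progenitor, 4 of 5 megakaryocyte and 2 of 7 monocyte markers, beside 2748 of 12421 genes.

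In CBL mutant HSPC all 22 mitotic members and 8 of 18 replication members lay below wild type without overlap, beside 31.3% of all genes. The medians were -0.434 over mitotic members, -0.175 over replication members and -0.024 over all genes. The within-library difference of the sets was -0.296 and -0.376 in the CBL mutant, against -0.054 and -0.155 in wild type HSPC, and both CBL mutant libraries lay below both wild type libraries. The lowest members were Ccnb1 at -0.65 ± 0.38 (SE), Ccnb2 at -0.63 ± 0.33 (SE) and, of the replication members, Ccne1 at -0.59 ± 0.36 (SE). Mcm6 at 0.04 was the only member with a positive value. Limma called no member, beside 0.556% of genes, and none of the 40 and 10.8% of genes had an unadjusted p under 0.05. With the 4 compared libraries alone, limma called 8 members lower, 7 of them mitotic, beside 4.47% of genes called lower. With unscaled TPM, 10 mitotic and 14 replication signs turned, and all 22 mitotic members and 15 of 18 replication members remained below the median of all genes, 0.329.

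Markers of other cells moved in the CBL mutant too. Limma called 3 of 5 plasma cell markers lower, with a summed level of 41.5 and 37.9 scaled TPM in CBL mutant HSPC, against 1518 and 1681 in wild type HSPC. It called 1 of 5 megakaryocyte markers lower and 2 of 4 T and natural killer markers tested higher. Without overlap, 7 of 8 erythroid precursor and 8 of 11 maturing neutrophil markers lay below wild type, beside 3885 of 12421 genes. Of the stem and progenitor markers 6 of 7 lay above it, beside 3166 of 12421 genes. No erythroid precursor, maturing neutrophil or progenitor marker was called. Maturing neutrophil markers summed to 308300 and 247900 scaled TPM in CBL mutant HSPC, against 396200 and 500200 in wild type HSPC, and progenitor markers to 184 and 128 in CBL mutant HSPC, against 73.0 and 82.0 in wild type HSPC. Of these markers 1 megakaryocyte marker was at 0 in CBL mutant library 1 and 1 plasma cell marker in library 2. Their part in the lower mitotic members was not tested.

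Side by side, the mitosis minus replication difference of the median fold changes was -0.71 in double mutant, -0.32 in RUNX1 mutant and -0.26 in CBL mutant HSPC. These 3 comparisons share the wild type libraries. The spread of the within-library difference between libraries of 1 group, pooled over the 6 groups, was 0.196 (SD), and 0.12 in double mutant, 0.431 in RUNX1 mutant, 0.0566 in CBL mutant and 0.0714 in wild type HSPC. The difference between double mutant and wild type HSPC was thus larger than the replicate spread of both groups, and that of the RUNX1 mutant was smaller than its own.

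In Ly6G+ cells the double mutant and wild type marrow were also compared. All 22 mitotic members had positive log2 fold changes in the double mutant against wild type Ly6G+ cells, with a median of 0.348, and 14 of 18 replication members were positive, with a median of 0.282, against 0.052 over all genes. Without overlap, 10 mitotic members and 2 replication members (Gins2 and Fen1) lay above wild type, beside 33.7% of genes. Rrm2 and Ccne1 lay below, beside 3412 of 11744 genes. Limma called none of the 40 over the 4 Ly6G+ libraries, beside 0% of 11744 genes, and no member and 14.1% of genes had an unadjusted p under 0.05. With unscaled TPM all 40 members were positive, with 20 mitotic members above wild type without overlap, around a median of 0.577 over all genes. The share of all genes above wild type in unscaled TPM was not computed, so the 20 cannot be set against it. All 22 mitotic and 14 of 18 replication members lay above that median.

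Bub1b had the largest value of all 40, with 56.6 and 29.8 scaled TPM in double mutant Ly6G+ cells, against 28.7 and 21.7 scaled TPM in wild type Ly6G+ cells (log2 fold change 0.70 ± 0.39 (SE), limma adjusted p = 0.399). Mki67 had the smallest of the mitotic values, 0.03, with 60.8 and 48.1 scaled TPM in double mutant Ly6G+ cells, against 58.1 and 48.3 scaled TPM in wild type Ly6G+ cells. Ube2c had 114 and 114 scaled TPM in double mutant Ly6G+ cells, against 93.3 and 81.8 scaled TPM in wild type Ly6G+ cells. Among the replication members Gins2 had 22.2 and 15.0 scaled TPM in double mutant Ly6G+ cells, against 14.7 and 11.2 scaled TPM in wild type Ly6G+ cells, above wild type without overlap. Ccne1 had 13.1 and 10.2 scaled TPM in double mutant Ly6G+ cells, against 16.4 and 14.2 scaled TPM in wild type Ly6G+ cells. Rrm2 had 80.5 and 78.2 scaled TPM in double mutant Ly6G+ cells, against 108 and 85.1 scaled TPM in wild type Ly6G+ cells. Ccne1 and Rrm2 were thus below wild type without overlap in both cell types of the double mutant. Over all genes tested, 34.5% lay below in HSPC and 3412 of 11744 in Ly6G+ cells.

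Of the other members with a Ly6G+ value, Plk1 had 31.1 and 26.4 scaled TPM in double mutant Ly6G+ cells, against 26.2 and 21.8 scaled TPM in wild type Ly6G+ cells. Birc5 had 84.8 and 71.3 scaled TPM in double mutant Ly6G+ cells, against 70.1 and 63.8 scaled TPM in wild type Ly6G+ cells. Both were above wild type without overlap. Top2a had 176 and 115 scaled TPM in double mutant Ly6G+ cells, against 120.3 and 93.4 scaled TPM in wild type Ly6G+ cells. Ccna2 had 56.0 and 52.6 scaled TPM in double mutant Ly6G+ cells, against 54.0 and 41.7 scaled TPM in wild type Ly6G+ cells. In both, double mutant library 2 lay below wild type library 1. The same held for Ccnb1, with 45.3 and 34.5 scaled TPM in double mutant Ly6G+ cells, against 36.4 and 26.9 scaled TPM in wild type Ly6G+ cells, and for Cdc20, with 49.8 and 38.2 scaled TPM in double mutant Ly6G+ cells, against 39.7 and 34.7 scaled TPM in wild type Ly6G+ cells. Ccne2 had 18.1 and 15.3 scaled TPM in double mutant Ly6G+ cells, against 16.9 and 22.5 scaled TPM in wild type Ly6G+ cells. Cdc6 had 14.1 and 11.7 scaled TPM in double mutant Ly6G+ cells, against 14.6 and 12.3 scaled TPM in wild type Ly6G+ cells. The groups overlapped in both of these. Pcna had 228 and 144 scaled TPM in double mutant Ly6G+ cells, against 179 and 149 scaled TPM in wild type Ly6G+ cells. Mcm2 had 56.1 and 36.0 scaled TPM in double mutant Ly6G+ cells, against 39.1 and 34.2 scaled TPM in wild type Ly6G+ cells. Mcm5 had 65.9 and 46.0 scaled TPM in double mutant Ly6G+ cells, against 49.6 and 41.5 scaled TPM in wild type Ly6G+ cells. In these 3 double mutant library 1 was the highest of the 4 libraries and library 2 was below at least 1 wild type library.

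The double mutant libraries of these cells differed from each other. Mcm6 had 128 and 58.0 scaled TPM in double mutant Ly6G+ cells, against 63.6 and 51.4 scaled TPM in wild type Ly6G+ cells. Cdk1 had 106 and 95.9 scaled TPM in double mutant Ly6G+ cells, against 91.3 and 78.7 scaled TPM in wild type Ly6G+ cells. Without library 1 the median log2 fold changes were 0.135 for mitotic and -0.051 for replication members. Without library 2 they were 0.54 for mitotic and 0.632 for replication members. Maturing neutrophil markers had a mean log2 level of 10.548 in library 1 and 13.227 in library 2, against 13.538 and 13.661 in wild type Ly6G+ cells, and calprotectin took 7.23% and 24.8% of TPM in those libraries, against 34.5% and 33.5% in wild type Ly6G+ cells. Ly6g itself had 258.8 and 1516 scaled TPM in double mutant Ly6G+ cells, against 2523 and 2573 in wild type Ly6G+ cells. Stem and progenitor markers summed to 317 and 85.5 scaled TPM in double mutant Ly6G+ cells, against 33.7 and 35.6 in wild type Ly6G+ cells. Without overlap, 3 of 6 tested progenitor, 2 of 5 megakaryocyte and 2 of 7 monocyte markers lay above wild type. Below it lay 1 progenitor, 1 monocyte, 7 of 8 erythroid precursor and 6 of 8 B precursor markers. So did 5 of 6 T and natural killer and 3 of 4 plasma cell markers, beside 3412 of 11744 genes. The part of these markers' cells in the difference was not tested.

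The difference between the double mutant effects in Ly6G+ cells and in HSPC was tested as an interaction in the fit of all 12 libraries. All 22 mitotic members had a positive interaction, with a median of 0.873 on the log2 scale, against 0.171 over replication members and 0.063 over all genes. The largest were Nusap1 with 1.62 ± 0.55 (SE) and Ube2c with 1.46 ± 0.55 (SE). Limma called no member (adjusted p = 0.366 for Nusap1), beside 0.0684% of 13155 genes, while 5 members, all mitotic (Bub1b, Top2a, Cenpe, Ube2c and Nusap1), and 9.75% of genes had an unadjusted p under 0.05. Without RUNX1 mutant HSPC library 1 and double mutant Ly6G+ library 1, an alternative chosen after the data were seen, limma called 4 mitotic members higher, beside 5.39% of genes called higher.

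Between cell types of wild type marrow the members moved as a block. All 40 were lower in Ly6G+ cells than in HSPC without overlap, beside 45.7% of genes. Limma called 35 of them lower, 19 mitotic and 16 replication members, beside 22.7% of genes called lower. The median log2 fold change was -1.35 over the mitotic members, -1.203 over the replication members and -0.078 over all genes. No sign turned with unscaled TPM, where 25 members and 9.71% of genes were called lower. The count was 20 without wild type HSPC library 1 (13.3% of genes), 11 without wild type HSPC library 2 (9.97%) and 13 without wild type Ly6G+ library 2 (10.9%).

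Rfc4 had the smallest adjusted p, with 18.3 and 19.7 scaled TPM in wild type Ly6G+ cells, against 49.2 and 60.7 scaled TPM in wild type HSPC (log2 fold change -1.48 ± 0.26 (SE), limma adjusted p = 0.0034). Mcm5 had 49.6 and 41.5 scaled TPM in wild type Ly6G+ cells, against 112 and 120.3 scaled TPM in wild type HSPC. Lig1 had 46.8 and 35.2 scaled TPM in wild type Ly6G+ cells, against 102 and 112 scaled TPM in wild type HSPC. Cdc6, whose log2 fold change was -0.90, fell to 14.6 and 12.3 scaled TPM in wild type Ly6G+ cells, against 25.3 and 26.4 scaled TPM in wild type HSPC. Cdc6 and Mcm4 had the smallest changes of the replication members called. Gins2 had 14.7 and 11.2 scaled TPM in wild type Ly6G+ cells, against 29.9 and 34.8 scaled TPM in wild type HSPC. Mcm2 had 39.1 and 34.2 scaled TPM in wild type Ly6G+ cells, against 81.4 and 86.3 scaled TPM in wild type HSPC. In all 6 both Ly6G+ libraries lay below both HSPC libraries.

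The largest falls were mitotic. Plk1 fell to 26.2 and 21.8 scaled TPM in wild type Ly6G+ cells, against 85.8 and 92.1 scaled TPM in wild type HSPC (log2 fold change -1.85 ± 0.38 (SE), limma adjusted p = 0.00621), and Bub1b fell to 28.7 and 21.7 scaled TPM in wild type Ly6G+ cells, against 95.3 and 81.4 scaled TPM in wild type HSPC. Cdc20 fell to 39.7 and 34.7 scaled TPM in wild type Ly6G+ cells, against 121 and 133 scaled TPM in wild type HSPC. Ube2c had a log2 fold change of -1.78. Cenpe, Cenpf, Mki67, Ccne1 and Uhrf1 were the 5 members not called, with Cenpe at the threshold and adjusted p = 0.05, 0.22, 0.147, 0.09 and 0.0708 by limma. Mki67 had 58.1 and 48.3 scaled TPM in wild type Ly6G+ cells, against 98.9 and 74.5 scaled TPM in wild type HSPC, a smaller difference than that of any mitotic member but Cenpf.

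Markers of maturation and of other cells moved with this step. Of 11 maturing neutrophil markers 4 were called higher in wild type Ly6G+ cells, and 4 of 4 primary granule markers were called lower, with a summed level of 675 and 700.0 scaled TPM in Ly6G+ cells, against 9104 and 10060 in HSPC. Of other cells, 2 of 8 B precursor, 4 of 6 T and natural killer and 2 of 7 monocyte markers tested were called higher, and 1 T and natural killer, 1 plasma cell and 1 stem and progenitor marker lower. All 8 B precursor markers were higher without overlap, beside 5074 of 13155 genes. Their summed level was 280 and 177 scaled TPM in Ly6G+ cells, against 76.8 and 83.7 in HSPC. The summed T and natural killer level was 51.4 and 52.0 scaled TPM in Ly6G+ cells, against 218 and 259 in HSPC. Nkg7 alone made up 22.7 and 21.5 of it in Ly6G+ cells, against 214.7 and 253.1 in HSPC. Without overlap, Nkg7 lay below HSPC and 5 of the 6 markers tested lay above. None of these markers was at 0. Their part in the fall of the members was not tested.

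Beyond the 40, 38 of 44 other mitosis genes and 34 of 41 other replication genes were called lower in wild type Ly6G+ cells, and none higher. Those with the smallest p were the cohesin protector Sgo1 and the condensin subunit Smc2, with Cenpm and Spc24 of the kinetochore, and the replication genes Rpa3, Pole2, Pold2 and Gins1. Of 24 regulators 11 were called lower, led by Cdkn2c, Mybl2, E2f4 and Wee1, and 2 higher. Cdkn1b rose to 119 and 101 scaled TPM in wild type Ly6G+ cells, against 31.4 and 29.6 scaled TPM in wild type HSPC (log2 fold change 1.81 ± 0.20 (SE), limma adjusted p = 0.000764), and the pocket protein gene Rbl2 rose by 0.62.

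In double mutant marrow the members called between the cell types were all replication genes. All 18 replication members were lower in Ly6G+ cells than in HSPC without overlap, as were 15 of 22 mitotic members, beside 31.8% of genes. Nusap1 was the 1 mitotic member higher without overlap, beside 3792 of 13155 genes. With unscaled TPM 8 mitotic and 15 replication members lay lower and none higher without overlap. Limma called 12 members lower, beside 16.4% of genes called lower. The median was -0.466 over mitotic members, -0.937 over replication members and 0 over all genes, so the sets stood 0.47 apart on the log2 scale, the opposite sign to the -0.15 of wild type cells. The difference between those steps is the interaction given above, in which no member was called.

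Rfc4 had 29.6 and 16.7 scaled TPM in double mutant Ly6G+ cells, against 55.2 and 58.7 scaled TPM in double mutant HSPC (log2 fold change -1.31 ± 0.26 (SE), limma adjusted p = 0.00753). Mcm2 had 56.1 and 36.0 scaled TPM in double mutant Ly6G+ cells, against 96.1 and 97.0 scaled TPM in double mutant HSPC (adjusted p = 0.00906). Pcna had 228 and 144 scaled TPM in double mutant Ly6G+ cells, against 352 and 374 scaled TPM in double mutant HSPC (adjusted p = 0.0191, limma). The cell types did not overlap in any of these. Mcm5 had 65.9 and 46.0 scaled TPM in double mutant Ly6G+ cells, against 122 and 129.7 scaled TPM in double mutant HSPC. Lig1 had 66.6 and 41.3 scaled TPM in double mutant Ly6G+ cells, against 119.5 and 128 scaled TPM in double mutant HSPC. Mcm5, of the helicase, and Lig1, the ligase that seals Okazaki fragments, were also called lower. Gins2 had 22.2 and 15.0 scaled TPM in double mutant Ly6G+ cells, against 39.7 and 41.3 scaled TPM in double mutant HSPC. Cdt1 had 31.7 and 19.0 scaled TPM in double mutant Ly6G+ cells, against 49.6 and 49.6 scaled TPM in double mutant HSPC. Cdc6 had 14.1 and 11.7 scaled TPM in double mutant Ly6G+ cells, against 22.5 and 21.1 scaled TPM in double mutant HSPC. In each of these the Ly6G+ library 1 lay between library 2 and the HSPC libraries.

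Of the mitotic members, Nusap1 had 46.6 and 29.3 scaled TPM in double mutant Ly6G+ cells, against 24.6 and 28.1 scaled TPM in double mutant HSPC, with a log2 fold change of 0.48 ± 0.39 (SE) and an adjusted p = 0.387 by limma. Top2a had 176 and 115 scaled TPM in double mutant Ly6G+ cells, against 126 and 145 scaled TPM in double mutant HSPC. Mki67 had 60.8 and 48.1 scaled TPM in double mutant Ly6G+ cells, against 46.4 and 53.1 scaled TPM in double mutant HSPC. Birc5 had 84.8 and 71.3 scaled TPM in double mutant Ly6G+ cells, against 94.6 and 112 scaled TPM in double mutant HSPC. Top2a and Mki67 overlapped between the cell types, and Birc5 did not. Cdc20 and Cdk1 had the lowest mitotic fold changes, -0.85 and -0.84 on the log2 scale, and Cdk1 had 106 and 95.9 scaled TPM in double mutant Ly6G+ cells, against 162 and 205 scaled TPM in double mutant HSPC.

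The count of 12 depended on the fit. The share of all genes called lower moved with it. The count was 21, with 7 mitotic members among them, without RUNX1 mutant HSPC library 1 (17.4% of genes) and also without library 2 (17.1%). It was 4 without double mutant HSPC library 1 (8.73%), 0 without double mutant HSPC library 2 (5.20%) and 0 with the 4 compared libraries alone (0.0165%). Without both libraries that stood apart it was 32, with 14 mitotic and 18 replication members, which include the 12, beside 31.5% of genes. Mybl2 fell in this step too, to 19.1 and 17.3 scaled TPM in double mutant Ly6G+ cells, against 74.8 and 91.0 scaled TPM in double mutant HSPC (log2 fold change -2.12 ± 0.18 (SE), limma adjusted p = 0.000476), and Cdkn1b rose to 46.3 and 67.2 scaled TPM in double mutant Ly6G+ cells, against 18.6 and 17.9 scaled TPM in double mutant HSPC. Of other genes, 22 of 41 replication genes were called lower and none higher, led by Pold2, Gins1, Chaf1b and Tipin, while of 44 mitosis genes 2 were called lower (Cks2 and Sgo1) and 1 higher (Cdc25b). Of 24 regulators 5 were called lower, beside the 16.4% of all genes, and 2 higher. Here too 4 of 4 primary granule markers were called lower, with 489 and 1463 scaled TPM in double mutant Ly6G+ cells, against 10660 and 13210 in double mutant HSPC, and 6 of 11 maturing neutrophil markers higher. Of other cells, 2 B precursor, 2 plasma cell, 1 T and natural killer and 1 megakaryocyte marker were called higher and 1 stem and progenitor marker lower. The part of these cells in the result was not tested.

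**Figure D4:**
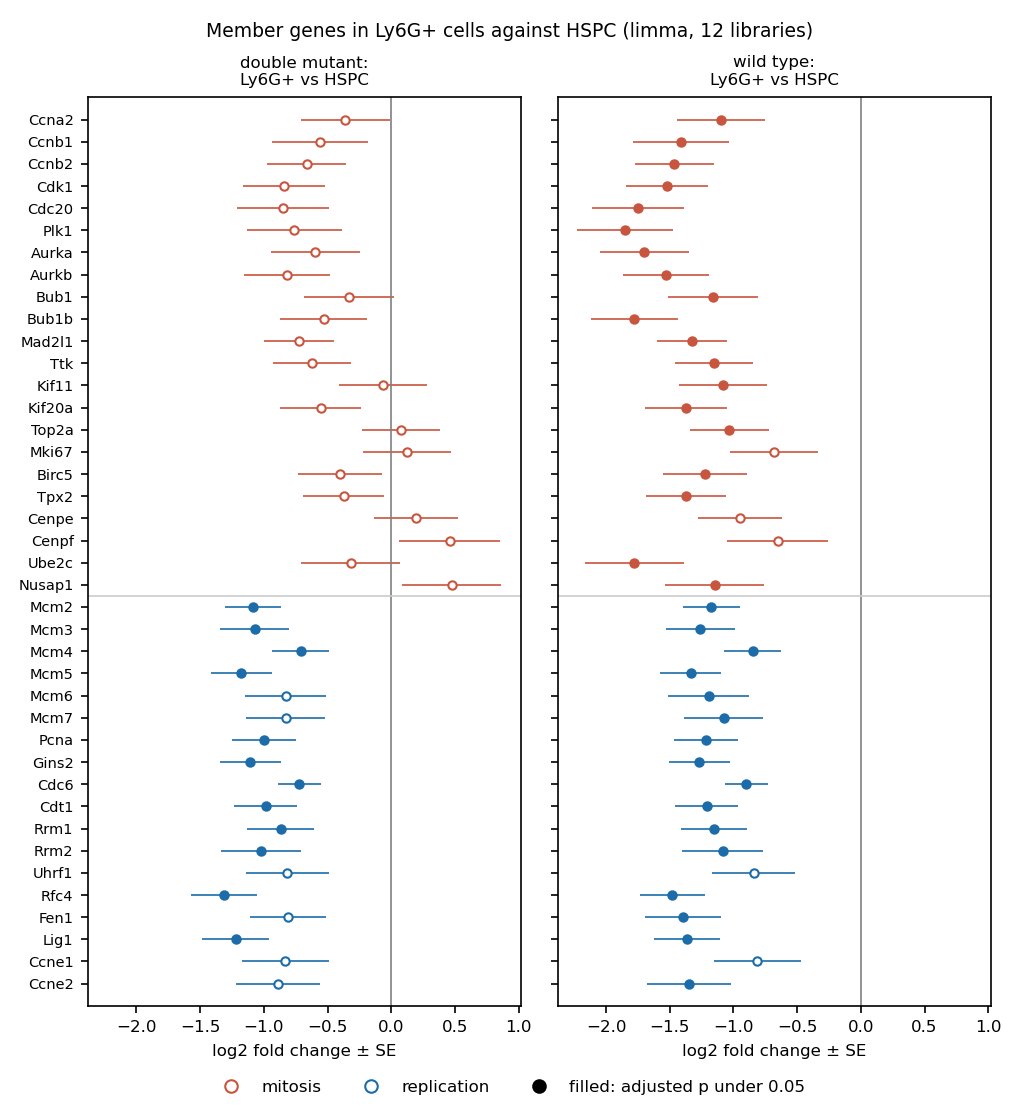
Log2 fold change ± SE of each member in Ly6G+ cells against HSPC, in double mutant (left) and wild type (right) marrow, from limma over 12 libraries; filled points were called. In wild type cells 35 of 40 points are filled, 19 mitotic above the line and 16 replication below it. In double mutant cells 12 replication points and no mitotic point are filled, and 5 mitotic points lie right of 0. With unscaled TPM no sign turns in either panel.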

How the data were processed

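The labels and submitters' processing notes give Illumina RNA libraries, bcl2fastq, CASAVA 1.8, kallisto and mm10; other settings are not given in the sources used here. The authors deposited a table named for counts whose values are TPM (not whole numbers, library sums 933370 to 981994), so depth is unknown, no counting interval is given, and a count test planned for the table was replaced by limma. Of 28987 Ensembl IDs, 27458 matched a symbol.

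TPM were scaled by trimmed mean factors over all 12 libraries. Genes with 1 TPM or more in at least 2 libraries were fitted as log2(scaled TPM + 1), pseudocount 1, with limma 3.58.1 in R 4.3.3 (trend and robust empirical Bayes), over 8 HSPC libraries, 4 Ly6G+ libraries or all 12. P-values were corrected (Benjamini-Hochberg) across every gene in a fit, and adjusted p under 0.05 counted as called. A fold change on this scale understates changes of low genes. The fit was tested on simulated data. Members and lists were chosen with earlier results of these data known. Values were named by a rule: a fixed set of members, up to 8 called members per comparison, and up to 4 called genes per direction of other lists; the rest by range. Alternatives were other scaling, filters, pseudocounts, a replicate block, the compared groups alone and each library left out. Promoters came from RefSeq on GRCm38.p6.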

Additional observations from a re-analysis of the deposited data

How the results depend on the processing

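No direction of a called member turned under any alternative run, and the main fits called members only between the cell types. Against wild type, signs did turn with unscaled TPM. In double mutant HSPC 13 mitotic and 6 replication signs turned. Of the alternatives for the main summary values, 250 were classed as the same, 14 as stronger, 7 as weaker and 2 as moved by more than the replicate spread. The class of the same includes fits in which the count of calls changed. Counts rose in more fits than the 14 and fell in more than the 7. With upper quartile scaling, for example, the 35 calls between wild type cell types became 34. With the compared groups alone, members called were 8 in CBL mutant and 20 in double mutant against wild type HSPC, and 0 in double mutant Ly6G+ cells against double mutant HSPC, where 5 were called with unscaled TPM; unscaled TPM gave 13 in double mutant against wild type HSPC. Leaving out 1 library at a time, the count ran from 0 to 20 in double mutant, 0 to 31 in RUNX1 mutant and 0 to 3 in CBL mutant against wild type HSPC, 0 to 26 in double mutant against wild type Ly6G+ cells, 11 to 38 in wild type and 0 to 21 in double mutant Ly6G+ cells against HSPC, and 0 to 3 for the interaction. The mitosis minus replication median ran from -0.59 to 0.04 in the RUNX1 mutant and from -0.80 to -0.58 in the double mutant HSPC over the same fits. The cause was not tested. Over these fits that left out 1 library, the number of all genes called changed along with the members. In each comparison the fits with the largest count of members also called more of all genes than the main fit did. These counts are therefore no result about the members alone. Without both libraries that stood apart, chosen after seeing the data, 32 were called in double mutant Ly6G+ cells against HSPC and 4 for the interaction. HSPC and Ly6G+ libraries of wild type and of double mutant marrow share replicate numbers. Whether they came from the same mice is not known here, and the fits treated them as independent. The correlation of library 1 minus library 2 between groups ran from -0.014 to 0.463, and was -0.014 between the wild type and 0.048 between the double mutant cell types. A replicate block gave 34 calls between wild type and 13 between double mutant cell types and 0 in the other comparisons. With 2 libraries a group and no read depth, small differences could not be resolved.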
